A study of Homo sapiens with 2 samples.

Results

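Matrix metalloproteinases (MMPs) are zinc-dependent enzymes that cut collagen, elastin and other proteins of the extracellular matrix. They are made as inactive precursors, in which a cysteine of the propeptide blocks the zinc until the propeptide is cut off, and the active enzymes are held in check by the tissue inhibitors of metalloproteinases. Monocytes and macrophages are known sources of several of them, and many MMP genes carry binding sites for the transcription factor AP-1 close to their start.

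The 6 probes described here are those that the Agilent catalogue assigns to MMP1, MMP3, MMP7, MMP9, MMP10 and MMP12, and all 6 were found by probe name among the 75149 probes of the arrays. Each had 2 spots on each array. The gene names come from the catalogue, since the files list probes by identifier alone, and whether a probe also binds the transcript of a related MMP was not tested. THP-1 is a line of human monocytic leukaemia cells, and lipopolysaccharide (LPS) is a component of the outer membrane of Gram-negative bacteria. The comparison is of 1 array of control THP-1 cells (Con) with 1 array of LPS-stimulated THP-1 cells (LPS). The treatment lasted 48 h, the labels name DMSO for the cells without LPS while the paper calls them untreated, and the LPS dose and any step of differentiation are not given in the sources used here. Both groups are the same cell line in the same medium, and the RNA is that of the whole culture, so that fewer cells with a transcript and less transcript per cell cannot be told apart. Each condition had a single array and so no replicate, no test was made, and the spread between the spots of a probe covers technical error alone. Markers of monocytes and of other cell types were not measured here, because no probe other than these 6 was paired with a gene, and for the same reason the inhibitors and the remaining MMPs were not measured.

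In the LPS-stimulated cells the signals of MMP9 and MMP7 were lower than in control cells, that of MMP10 was well above background in control cells alone, and that of MMP1 was higher by somewhat less than 2-fold. Of all 75149 probes, 7480 were well above background on the Con array alone, as MMP10 was, and 447 on the LPS array alone. The signals of MMP3 and MMP12 were too low on both arrays for a fold. A difference was called at 2-fold or more after each array was scaled to its 75th percentile. By this measure 3 of the 6 probes were called lower (MMP7, MMP9 and MMP10) and 0 were called higher. MMP3 and MMP12 had no fold and could not be called, which leaves 4 probes, all well above background on the Con array. Of the 69392 probes that were well above background on at least 1 array, 16.5% were called lower and 0.783% higher. This split of all probes, 11473 lower to 543 higher, moved to 3610 and 2827 under quantile normalization and to 4165 and 1648 under cyclic loess, while MMP7 and MMP9 were called lower under both.

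Among the genes of the RefSeq annotation (GRCh38.p14), 5 of the 6 lie on chromosome 11, where MMP10, MMP1, MMP3 and MMP12 are consecutive protein-coding genes and MMP7 lies next to MMP20. Of the 6, MMP9 alone lies on chromosome 20, between ZNF335 and SLC12A5. The readings of these neighbours differed, each with a limit. MMP1 was 1.84-fold higher in LPS-stimulated cells, which is below the threshold for a call. MMP10 was called lower from detection on the Con array alone. That call ended under normexp background correction, quantile normalization and cyclic loess. MMP3 was not well above background on either array. Whether neighbouring genes differ in their response was not tested.

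Promoter sequences were matched for 2 of the 6 genes, MMP7 and MMP10, both of which were called lower. They are shown because AP-1 is a known regulator of MMP genes, and each run is the 250 bases before the start of the gene, read along the gene's own strand from RefSeq (GRCh38.p14). Capitals mark the letters TGAGTCA (the AP-1 element) or TGAATCA (a variant of it) and the letters TATAAA (the TATA box). The MMP7 sequence is chr11:102530748-102530997 and the MMP10 sequence chr11:102780629-102780878, both on the minus strand.
MMP7: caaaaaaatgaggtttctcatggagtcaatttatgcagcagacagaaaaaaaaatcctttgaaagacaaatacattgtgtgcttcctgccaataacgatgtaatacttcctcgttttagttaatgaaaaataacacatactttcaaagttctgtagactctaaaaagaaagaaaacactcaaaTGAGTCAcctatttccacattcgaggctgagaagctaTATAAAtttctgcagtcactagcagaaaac
MMP10: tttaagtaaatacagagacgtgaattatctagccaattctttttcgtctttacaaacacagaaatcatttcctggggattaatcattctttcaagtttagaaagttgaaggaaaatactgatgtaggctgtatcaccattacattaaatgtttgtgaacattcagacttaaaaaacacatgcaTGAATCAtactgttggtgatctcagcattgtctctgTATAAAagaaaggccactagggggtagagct

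Both sequences hold an AP-1-like element at the same distance, from 67 to 61 bases before the gene's start. In MMP7 it is TGAGTCA, which 4.20% of 35116 promoter windows of the same length hold on either strand, and in MMP10 it is TGAATCA, held by 2.53%. A TATA box lies from 30 to 25 bases before the start of MMP7 and from 31 to 26 bases before that of MMP10, and 10.7% of the windows hold one. The PEA3/ETS core AGGAAG was found on the opposite strand of MMP7 from 169 to 164 and from 145 to 140 bases before the start, and not in the MMP10 window. These letters occur in 28.7% of the windows. The NF-kB consensus was found in neither window and occurs in 5.21% of all. None of these matches overlaps another. They describe letters of the reference sequence, and binding was not measured.

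MMP1 is the interstitial collagenase, which cuts fibrillar collagen. The spots of A_23_P1691 had processed signals of 300.3 and 254.7 on the Con array, and of 564 and 549 on the LPS array, in the arbitrary units of the scanner software. Both spots were brighter on the LPS array, and the spots of the arrays did not overlap. After scaling, the difference, LPS minus Con, was 0.88 (log2), or 1.84-fold higher, with an SD between spots of 0.17 on the Con array and 0.03 on the LPS array. Over the pairings of 1 spot of each array it ran from 0.74 to 1.01, so the pairings lie on both sides of the 2-fold threshold. The call depends on the scaling as well, since without scaling the difference was 1.01 (log2) and the probe was called higher at 2.01-fold. MMP1 was the probe of the 6 with a higher signal in LPS-stimulated cells, and 0.820% of the 61465 probes well above background on both arrays were called higher.

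MMP9, also called gelatinase B, cuts denatured collagen and the collagen of basement membranes. The spots of A_23_P40174 read 3629 and 3252 on the Con array, and 1491 and 1460.4 on the LPS array. The LPS array held the lower value in each pairing of spots. The scaled difference was -1.35 (log2), or 2.55-fold lower, with spot SDs of 0.11 on Con and 0.02 on LPS, and the pairings ran from -1.45 to -1.26. MMP9 was far above background on both arrays, with a median pixel intensity of 1461 against a local background of 20 for the dimmer of the LPS spots.

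MMP7, or matrilysin, is a small MMP that lacks the hemopexin-like domain of most of the family and cuts matrix proteins as well as proteins of the cell surface. A_23_P52761 had spot signals of 276 and 259.7 on the Con array and of 55.2 and 65.8 on the LPS array. All its spots were well above background, and the values of the arrays did not overlap. The scaled difference was -2.28 (log2), or 4.87-fold lower, with spot SDs of 0.06 on Con and 0.18 on LPS, and the pairings ran from -2.46 to -2.11. Of the 3 MMP probes measured on both arrays it differed most. MMP7 and MMP9 were called lower among the 3 MMP probes that were well above background on both arrays, and of all probes detected on both arrays 7.42% were called lower.

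**Figure D1:**
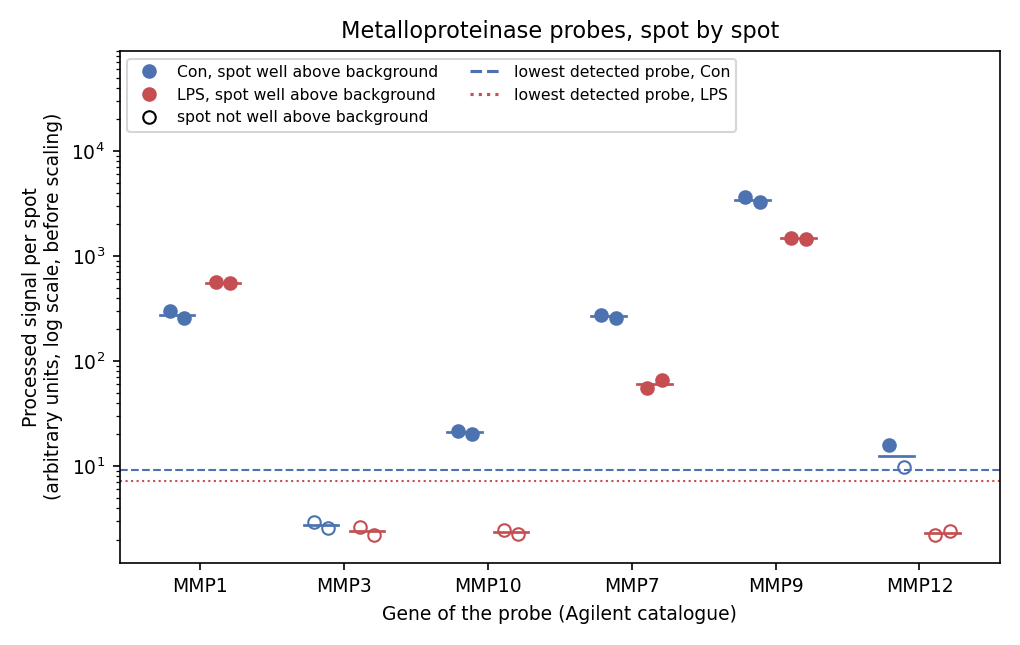
Processed signal of each spot (log scale, arbitrary units, before scaling between the arrays) for the 6 metalloproteinase probes on the Con array (blue) and the LPS array (red), with short lines at the geometric mean of the 2 spots and horizontal lines at the lowest signal of any detected probe, 9.23 on Con and 7.23 on LPS. The spots of MMP1, MMP7 and MMP9 are well above background on both arrays, while those of MMP10 are filled on the Con array alone and those of MMP3 are open throughout.

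MMP10 and MMP3 are the stromelysins, related enzymes that cut a wide range of matrix proteins and can activate other MMP precursors. The MMP10 probe A_23_P13094 gave 21.6 and 20.4 on the Con array, both well above background, and 2.48 and 2.24 on the LPS array, neither of them well above background. Set against the lowest signal of a detected probe on the LPS array, 7.23, the scaled signal of MMP10 was at least 3.18-fold lower in LPS-stimulated cells, a bound of -1.67 (log2). The median pixel intensities of these spots were 46 and 48 on the Con array, against 31.5 and 26 on the LPS array. The 600 negative control spots had a median pixel intensity of 22.75 on Con, with a 95th percentile of 27, and of 24 on LPS, with a 95th percentile of 29. On the Con array both MMP10 spots therefore lay above that percentile, and on the LPS array 1 of the 2 did. The MMP3 probe A_23_P161698 had signals of 2.97 and 2.56 on Con and of 2.63 and 2.21 on LPS, with no spot well above background, and no fold was computed. Its median pixel intensities were 28 and 28.5 on Con, above the 95th percentile of the negative controls there, and 24 and 27 on LPS, below it.

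MMP12 is the macrophage metalloelastase, which cuts elastin. Its probe A_23_P150316 had signals of 15.8 and 9.76 on the Con array, the first of them well above background and the second not, and of 2.20 and 2.44 on the LPS array, neither of them well above background. A probe was taken as detected where more than 50% of its spots were well above background, so MMP12 counted as undetected on both arrays and received no fold. Where 1 spot was enough, an alternative chosen after the data were seen, the bound for MMP12 was 3.60-fold lower in LPS-stimulated cells. This bound is taken against a lower signal, 3.78 on the LPS array in place of 7.23. It is not comparable with the 3.18-fold of MMP10, whose bound by the same looser rule was 6.09-fold lower. MMP12 was called lower under 3 of the 16 alternatives, each of which loosens the rule for detection. The spots had median pixel intensities of 40 and 34 on Con, above the 95th percentile of the negative controls there, and of 25 and 24 on LPS, below it.

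The 8 spots with processed signals from 2.20 to 2.97 (all 4 of MMP3 and those of MMP10 and MMP12 on the LPS array) were not marked positive and significant, and their signal was 0.991 to 0.994 times the error that the scanner software gave for the same spot. Such values carry no order among themselves. For the 12 spots of MMP1, MMP7 and MMP9 that error was 10.0% to 10.8% of the signal. None of the 24 spots carried an outlier flag or was saturated.

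The difference between the arrays changed with the signal over the arrays as a whole, and this bears on the dim MMP probes more than on the bright ones. All probes were sorted from dim to bright by the mean of the arrays and cut into 10 equally large groups. MMP10, MMP12 and MMP3 fell in the dimmest group, where the median difference was -1.84 (log2). Of the 7515 probes of that group 2400 had a fold, and 93.5% of these were called lower. None of the group (0 probes) was detected on both arrays, so each of these folds is a bound from detection on a single array. By these bounds 2244 probes were called lower and 0 higher, and the part of the detection filter in that share was not tested. The share of the MMP10 result that goes with the change of the difference with the signal was not tested either. MMP7 was in group 5, with a median difference of -0.11, percentiles (5th and 95th) of -1.04 and 0.42, and 5.35% of probes called lower. MMP1 was in group 7, with a median of 0.01, percentiles of -0.58 and 0.48, and 1.16% called higher. MMP9 was in the brightest group, with a median of 0.03, percentiles of -0.44 and 0.48, and 1.49% called lower. The values of MMP1, MMP7 and MMP9 lay outside those percentiles of their own groups. In the dimmest group the same percentiles were -3.52 and -0.08. The MMP10 difference taken without a bound, -3.29, lay between them, as did those of MMP12 and MMP3. These 3 differences rest on LPS signals that were not well above background.

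**Figure D2:**
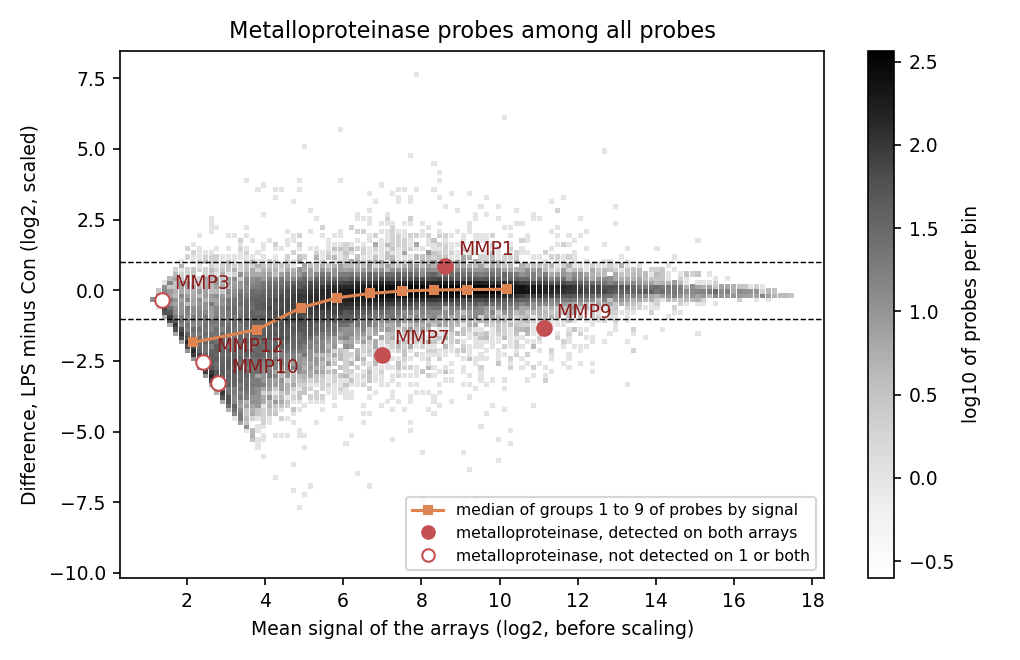
Scaled difference, LPS minus Con (log2), against the mean signal of the arrays (log2, before scaling) for all probes (grey, shaded by the number of probes in a bin), with the medians of groups of probes by signal in orange and the 6 metalloproteinase probes in red (open where not detected on both arrays). MMP7 and MMP9 lie below the dashed line of 2-fold lower and MMP1 just under that of 2-fold higher, while MMP10 and MMP12 sit on the lower left edge and MMP3 at the left tip, all among dim probes whose median difference was -1.84.

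The measured differences of the bright probes kept their direction under each way of processing that was run. MMP9 ran from 2.33-fold to 2.73-fold lower and MMP1 from 1.58-fold to 2.01-fold higher. MMP7 ran from 2.97-fold lower, under the normexp background correction, to 5.21-fold lower. The MMP10 call ended under the normexp background correction (bound of 1.28-fold lower), quantile normalization (1.02-fold) and cyclic loess normalization (1.19-fold). The MMP10 difference taken without a bound was -0.49 (log2) with normexp, -1.47 with quantile normalization and -1.63 with cyclic loess. These values rest on LPS signals not well above background. Cyclic loess fits and removes a trend of the difference with the signal, and quantile normalization gives the arrays the same distribution. What part of the change in the MMP10 bound goes with either step was not tested.

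**Figure D3:**
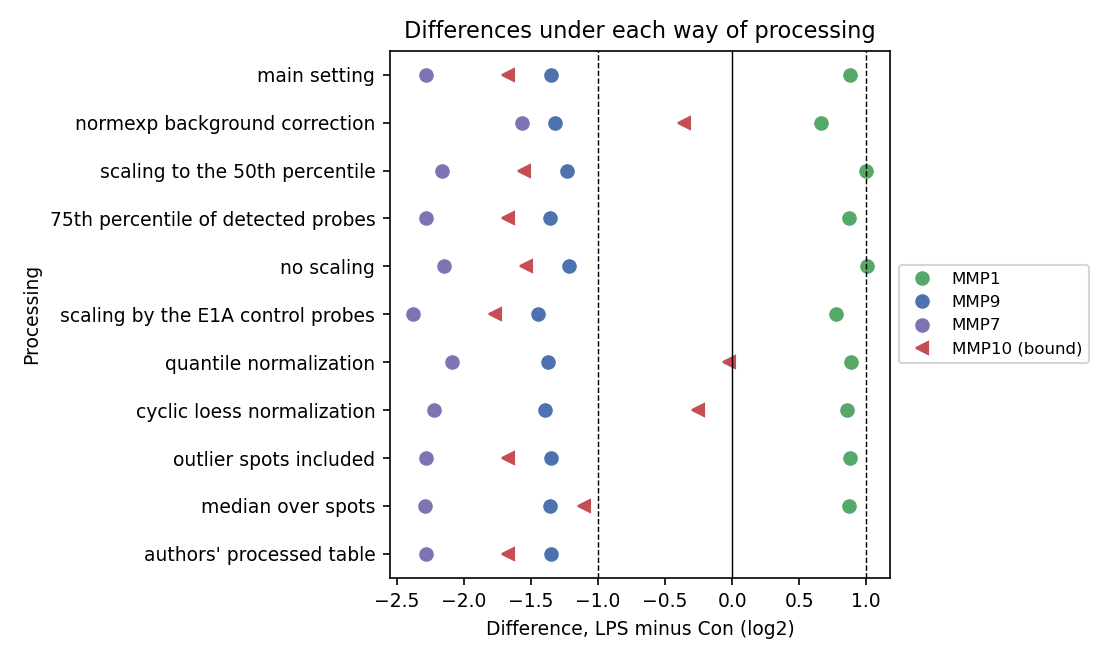
Difference, LPS minus Con (log2), of MMP1, MMP7 and MMP9 and the bound for MMP10 (triangles, taken against the dimmest detected probe of the LPS array) under the main setting and each alternative of background correction, scaling, spot summary and starting table, with dashed lines at 2-fold. The points of MMP7 and MMP9 stay left of the lower line, those of MMP1 lie near the upper line, and the MMP10 bound lies right of the lower line under 3 of the settings.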

How the data were processed

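Total RNA of THP-1 cells was amplified, labelled with Cy3 and hybridised to 1-colour arrays, 1 per condition, whose design names the build hg19. The authors deposited, for each array, the intensity of every spot after background subtraction and detrending by Agilent Feature Extraction 11.5.1.1, with no scaling between arrays. The flags for each spot hold 0 or 1. The authors' processed table gives 1 intensity per array for the probes it lists, of which 65460 were matched to the 75149 used here, with column medians of 136 (Con) and 137 (LPS), and 97.1% and 96.9% of its values lay within 0.001 (log2) of the mean of all spots. It was used as an alternative, except for MMP1, whose probe was not among those matched and was compared from the scanner files alone. The count of 0 MMP probes called higher under this alternative therefore leaves MMP1 out.

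Control spots and spots with outlier flags were left out, log2 intensities were averaged per probe, and each array's 75th percentile was subtracted, which lowered LPS by 0.13 (log2) relative to Con and left the median of all probes at -0.13. For a probe detected on 1 array, the fold is a bound, taken against the dimmest detected probe of the other array or against the probe's own value there if that was brighter. On Con 91.7% and on LPS 82.4% of probes were detected. Precision is limited by the number of arrays. All 6 probes are named by rule, and the probes, gene lists and alternatives were chosen with earlier results of these data known. The gene lists had assumed gene names and were not measured. Python 3.11.15, numpy 2.4.6, pandas 2.3.3, R 4.3.3 and limma 3.58.1 (normexp with an offset of 50 on median intensities, quantile and cyclic loess normalization) were used.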

Additional observations from a re-analysis of the deposited data

How the results depend on the processing

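The number of MMP probes called lower was 3 and became 1 at a threshold of 4-fold, where MMP7 alone was called. It stayed within 1.5 times of 3 under the other 15 alternatives, but its members changed. The count was 2 with normexp, quantile normalization and cyclic loess, where MMP10 was not called. At 3-fold it was also 2, since MMP9 was not called. It was 4 under the 3 alternatives that loosen the rule for detection, where MMP12 was added. The number called higher was 0 and became 1 (MMP1) without scaling and at 1.5-fold. With the authors' processed table this number leaves MMP1 out. MMP1 differed by 0.88 (log2) and by 0.66 with normexp. MMP7 differed by -2.28, by -1.57 with normexp and by -2.09 with quantile normalization. MMP9 differed by -1.35, by -1.23 with the 50th percentile and by -1.22 without scaling. The bound for MMP10 was -1.67, and it was -0.355 with normexp, -1.55 with the 50th percentile, -1.54 without scaling, -0.0223 with quantile normalization, -0.25 with cyclic loess and -1.10 with the median over spots. No direction of MMP1, MMP7 or MMP9 reversed under any alternative run, their spot pairings included. The MMP10 bound cannot rise above 0 by its definition, so its sign is no check of direction. The MMP10 difference taken without a bound was below 0 under all 16 alternatives. That difference rests on LPS signals not well above background.

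Over all probes, 11473 were called lower and 543 higher. The counts were 1314 and 312 with normexp, 3610 and 2827 with quantile normalization, and 4165 and 1648 with cyclic loess. At 1.5-fold 1794 were higher, at 3-fold 6163 were lower and 214 higher, and at 4-fold 3405 and 108. The alternative that takes a probe with 1 spot well above background as detected was added after the data were seen. No paired analysis was possible because each condition had a single array. Signal over background limits MMP3, MMP10 and MMP12. A lower level of MMP3 in LPS-stimulated cells was not detectable, since its probe was not well above background on Con. A higher level was detectable only where it brought the probe well above background on LPS, and the probe was not.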
